A study of Mus musculus with 13 samples.

Results

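The 9 genes described here encode parts of the Polycomb repressive complexes: Suz12, Eed, Ezh1, Ezh2 and Jarid2 for PRC2, and Ring1, Rnf2, Bmi1 and Cbx2 for PRC1. They were taken by symbol from a table of 23235 genes, and all 9 were found. The table gives RNA levels in the nucleus and in the cytoplasm of mouse oocytes, either wild type (WT) or lacking the RNA helicase MTR4, which hands nuclear RNA to the exosome for degradation. Per the labels, each library was a Smart-seq2 library of polyadenylated RNA, made from 10 nuclei or 10 cytoplasms that had been parted by micromanipulation. In all, 13 libraries are named: nuclei of WT oocytes at day 14 (2 libraries) and day 21 (3), cytoplasms of WT oocytes at day 14 (2) and day 21 (2), and, all at day 21, MTR4-null nuclei (2) and MTR4-null cytoplasms (2). Strain and the means by which MTR4 was removed are not given in the sources used here.

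The table has 4 columns, 1 for each genotype and compartment, and none for an individual library. Both null columns were taken to stand for the null libraries of day 21. The WT columns name no day, so genotype and age cannot be told apart in any comparison of null with WT. Without replicates the error of a difference is unknown, and neither p-values nor standard errors are given. Differences are described by size only.

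Polycomb proteins keep genes silent by marking histones. PRC2 methylates histone H3 through its catalytic subunit EZH2 or EZH1, which works only when joined to SUZ12 and EED. PRC1 attaches ubiquitin to histone H2A through RING1 or RNF2, paired with 1 of the PCGF proteins, of which BMI1 is a member, while CBX proteins such as CBX2 read the methyl mark left by PRC2. In growing oocytes both complexes are active, and methylated histone H3 placed there is passed to the embryo, where it silences the maternal copy of a small group of imprinted genes.

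The promoters of both paralog pairs are shown first. The balance within each pair differed between the columns, and any link of that balance to these sequences was not tested. The 250 bases before the start site are given 5' to 3' on the gene's strand, from RefSeq on GRCm38.p6. GC boxes (GGGCGG) and CCAAT boxes (CCAAT), searched on both strands, are in capitals. The PRC2 pair is Ezh1 (chr11:101226464-101226713, minus strand) and Ezh2 (chr6:47595031-47595280, minus strand). The PRC1 pair is Ring1 (chr17:34024681-34024930, minus strand) and Rnf2 (chr1:151500992-151501241, minus strand).
Ezh1: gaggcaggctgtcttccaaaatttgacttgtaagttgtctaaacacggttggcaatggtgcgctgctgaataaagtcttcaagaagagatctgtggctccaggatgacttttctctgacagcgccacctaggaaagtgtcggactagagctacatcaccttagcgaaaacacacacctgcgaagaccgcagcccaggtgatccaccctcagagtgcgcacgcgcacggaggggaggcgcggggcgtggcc
Ezh2: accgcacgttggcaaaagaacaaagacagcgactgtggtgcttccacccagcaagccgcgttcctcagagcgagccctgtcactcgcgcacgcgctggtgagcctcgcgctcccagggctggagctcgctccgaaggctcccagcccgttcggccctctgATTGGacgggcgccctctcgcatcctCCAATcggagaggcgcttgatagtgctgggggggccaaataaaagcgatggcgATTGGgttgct
Ring1: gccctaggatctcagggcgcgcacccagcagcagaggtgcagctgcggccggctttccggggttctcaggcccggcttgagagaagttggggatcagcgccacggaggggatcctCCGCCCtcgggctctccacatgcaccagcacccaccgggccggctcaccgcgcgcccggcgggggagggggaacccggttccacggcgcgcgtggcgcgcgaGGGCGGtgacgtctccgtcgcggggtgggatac
Rnf2: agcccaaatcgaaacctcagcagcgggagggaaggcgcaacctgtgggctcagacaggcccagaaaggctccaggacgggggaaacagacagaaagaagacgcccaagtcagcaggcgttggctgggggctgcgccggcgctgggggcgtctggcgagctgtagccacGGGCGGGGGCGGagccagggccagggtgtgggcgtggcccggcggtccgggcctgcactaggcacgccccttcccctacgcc
The Ezh2 window held 3 CCAAT boxes and no GC box, and the Ezh1 window held neither. The Ring1 and Rnf2 windows each held 2 GC boxes and no CCAAT box. RefSeq windows were found for 8 of the 9 genes, Jarid2 with 2, which makes 9 windows. A GC box was in 6 of the 9 windows and in 32.7% of all 32851 promoter windows. A CCAAT box was in 3 of 9 and in 33.8% of all. A TATA box (TATAAA) was in 1 of 9, a window of Jarid2, and in 12.4% of all, and the cAMP response element (TGACGTCA) was in 0 of 9 and in 1.55% of all. The 9 windows were rich in CpG, with GC contents from 54.4% to 73.6% against a median of 52.4% over all windows, and ratios of observed to expected CpG from 0.65 to 1.10 against a median of 0.37. These matches describe the sequences and do not identify binding sites.

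Most of the 9 genes were well expressed in the oocyte, with Ezh2 the highest and Ring1 the lowest in every column. Values are FPKM by the table's name, that is, per length of transcript, but the 4 columns are not on 1 common scale: their totals ran from 594034 in WT nuclei to 6637350 in WT cytoplasms. A gene's place among the 14240 genes that reached 1 in at least 2 columns does not depend on that scale. All 9 genes passed this filter. Their median place was the percentile 84.2 in WT nuclei, 77.2 in null nuclei, 79.5 in WT cytoplasms and 88.0 in null cytoplasms. Apart from Ring1, the lowest place in any column was the percentile 53.9 (Ezh1 in null cytoplasms). The 9 genes together made up 0.0875% of the column total in WT nuclei, 0.0362% in null nuclei, 0.0689% in WT cytoplasms and 0.0759% in null cytoplasms.

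The label of the cells was checked on markers. All 12 oocyte markers, such as Zp3 and Gdf9, were above 0 in every column, and the lowest place of any was the percentile 78.2. Markers of granulosa cells, the somatic cells that surround the oocyte, summed to between 0.00196% and 0.0100% of the column totals. Of these 17 markers, 2 were at 0 in WT nuclei, 5 in null nuclei and none in the cytoplasms. Foxl2, a defining granulosa factor, had 0.0191 in WT nuclei, 0 in null nuclei, 0.117 in WT cytoplasms and 7.10 in null cytoplasms. Inha, the highest of these markers in both cytoplasms, went the other way, with 1.92, 0, 253 and 86.8 in the same order. Cyp19a1 had 78.0 in WT and 15.4 in null cytoplasms. As deposited, 5 of the 15 markers that passed the filter were higher by 2-fold or more in null cytoplasms and 3 lower. The shares of all genes that passed were 14.9% and 43.7%. The 5 higher markers (Amh, Hsd3b1, Wt1, Kitl and Star) were all under 1 in WT nuclei. Each needed 1 null column to pass the filter, so the count of higher markers is no support for a difference. The summed granulosa share was higher in null (0.0100%) than in WT cytoplasms (0.00738%) and lower in null (0.00196%) than in WT nuclei (0.00320%). Its part in the results was not tested. Skiv2l2, which encodes MTR4, had 13.3 in WT nuclei, 3.54 in null nuclei, 187 in WT cytoplasms and 4.36 in null cytoplasms, and so was lower in both null columns.

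**Figure D1:**
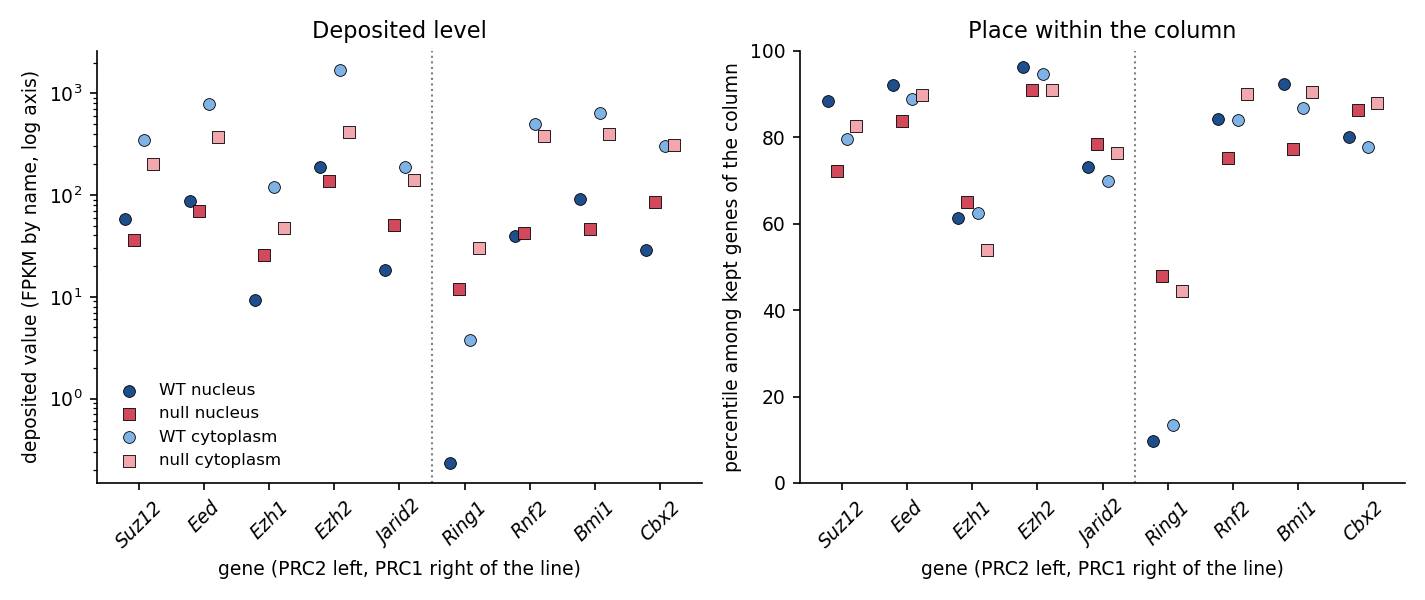
Levels of the 9 Polycomb genes in the 4 columns. Left, the deposited value (FPKM by name, log axis); right, the percentile among the 14240 kept genes of the same column. Each point is 1 column's value, with no replicate. Ezh2 is the highest of the 9 genes in every column, and Ring1 moves from the percentile 9.78 to 47.9 in the nucleus and from 13.4 to 44.3 in the cytoplasm.

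Differences between columns were taken on the log2 scale with a divisor for each column (the median, over genes, of its ratio to the geometric mean of all columns) and an added 1, which understates the change of low genes. These divisors came to 0.281 (WT nuclei), 0.604 (null nuclei), 3.41 (WT cytoplasms) and 1.84 (null cytoplasms). Such differences set a gene against the median gene and are silent on the amount of RNA in the whole column. Fewer nuclei or cytoplasms in a library and less RNA in each cannot be told apart. A difference of at least 1 log2 unit, 2-fold, is counted as higher or lower.

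In the nucleus, most of these 9 genes were lower in null than in WT when set against the median gene, while Ring1 was much higher. Of the 9 genes, 5 were lower by 2-fold or more (Suz12, Eed, Ezh2, Rnf2 and Bmi1), 1 was higher by 2-fold or more (Ring1) and 3 lay between (Ezh1, Jarid2 and Cbx2). Over all kept genes, 16.4% were lower by 2-fold or more and 25.6% higher by 2-fold or more. The median difference was -1.01 for the 9 genes and 0.05 for all kept genes. As deposited, where the median kept gene was higher in null by 0.91, 4 of the 9 genes were higher by 2-fold or more and 0 lower, against 46.3% and 3.69% of kept genes. The call of lower is therefore against the median gene and does not hold for the deposited values, although Suz12, Eed, Ezh2 and Bmi1 had lower deposited values in null nuclei too.

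Among the PRC2 genes, Suz12, the scaffold subunit, had 58.4 in WT nuclei and 35.8 in null nuclei, a relative difference of -1.79. Eed, which binds the methyl mark and stimulates the enzyme, had 88.1 and 69.4 (relative -1.44). Ezh2, the main catalytic subunit, had 186 and 138 (relative -1.53). These 3 subunits of the catalytic core thus ran from -1.79 to -1.44. Ezh1, the second catalytic subunit, had 9.39 in WT and 25.7 in null (relative 0.34). Jarid2, an accessory subunit that helps bring PRC2 to chromatin, had 18.5 and 50.4 (relative 0.34). Ezh1 and Jarid2 were higher in null as deposited and close to the median gene after rescaling.

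Among the PRC1 genes, Bmi1 had 90.5 in WT nuclei and 46.6 in null nuclei (relative -2.05), the lowest difference of the 9 genes. Rnf2, the main ubiquitin ligase, had 39.6 and 41.9. Its relative difference of -1.01 was at the edge of the 2-fold limit, and as deposited it was 0.08. Cbx2 had 29.0 and 85.6 (relative 0.46). Ring1, the ligase paralog of Rnf2, had 0.231 in WT nuclei and 11.9 in null nuclei (relative 3.51). The Ring1 value in WT nuclei was under 1, so the size of this difference depends on the added constant, from 2.09 with 5 added to 4.42 with 0.1 added.

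Across all kept genes, differences between null and WT were lower where the WT level was high, so the values were also set beside genes of a similar level. Of the 9 genes, 6 belonged to the 4103 kept genes with a WT cytoplasm value of at least 200. In the nucleus the median relative difference of those 4103 genes was -0.46, and 23.2% of them were lower by 2-fold or more. The 6 Polycomb genes had a median of -1.49, and 5 of them were lower by 2-fold or more, all but Cbx2. Ring1 belonged to the 2252 kept genes with a WT cytoplasm value under 5, of which 54.3% were higher by 2-fold or more in null nuclei (median 1.16). Genes of this group with a WT nuclear value under 1, Ring1 among them, could pass the filter only with a null column. The share and the median of this group are therefore shaped in part by the filter.

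In the cytoplasm the same genes were close to the median gene. Of the 9 genes, 1 was lower by 2-fold or more in null against the median gene (Ezh2) and 1 higher by 2-fold or more (Ring1), against 19% and 23.9% of all kept genes. The median difference was 0.19 for the 9 genes and 0.04 for all kept genes. As deposited, where the median kept gene was lower in null by 0.79 on the log2 scale, 3 genes were lower by 2-fold or more (Eed, Ezh1 and Ezh2) and 1 higher (Ring1), against 43.7% and 14.9%. Among the genes with a WT cytoplasm value of at least 200, the median was -0.64 with 33.3% lower by 2-fold or more, and the 6 Polycomb genes had a median of 0.14 with 1 lower. The cytoplasmic difference itself contains the WT cytoplasm value by which these genes were grouped.

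Ezh2 had 1673 in WT cytoplasms and 412 in null cytoplasms, a relative difference of -1.13. With column totals made equal, with divisors from genes of at least 10, or with quantile normalization, Ezh2 no longer reached 2-fold, and its relative difference ran from -1.13 to -0.68 over all rescaled settings. Eed had 790.4 and 372 (relative -0.20), and Suz12 had 347 and 200.5 (relative 0.10). Ezh1 had 119.6 and 47.4 (relative -0.43) and Jarid2 had 187 and 139 (relative 0.46). All PRC2 genes had lower deposited values in null cytoplasms, and Ezh2 had the lowest difference of the 5 on either scale.

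Bmi1 had 645 in WT cytoplasms and 397 in null cytoplasms (relative 0.19). Rnf2 had 503 and 377 (relative 0.47). Cbx2, whose chromodomain reads the mark of PRC2, had 303 and 307 (relative 0.90), and it reached 2-fold with column totals made equal, with divisors from genes of at least 10 and with quantile normalization. Ring1 had 3.80 and 30.1 (relative 3.04). Ring1 was higher by 2-fold or more in both null columns under every setting tried, as deposited included. With a WT nuclear value under 1, however, Ring1 needed 1 null column to pass the filter. Its place in the counts of higher genes is therefore weak support for a difference.

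**Figure D2:**
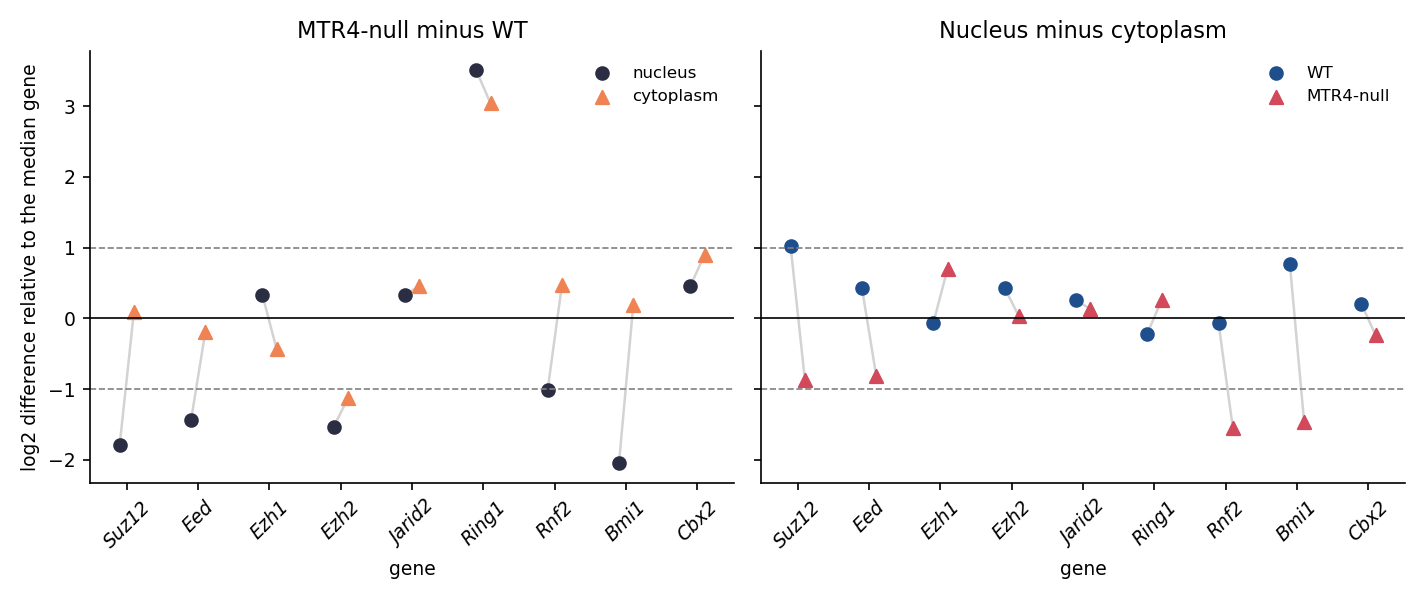
Log2 differences of the 9 genes relative to the median gene: MTR4-null minus WT in each compartment (left) and nucleus minus cytoplasm in each genotype (right). Each point is 1 pair of columns, without error since there are no replicates, and dashed lines mark 2-fold. Suz12, Eed, Ezh2, Rnf2 and Bmi1 lie at or below the lower line in the nucleus, and of these Ezh2 alone does so in the cytoplasm.

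Nuclei were next set against cytoplasms within each genotype to see where the transcripts lay. In WT the Polycomb genes were near the median gene or somewhat toward the nucleus, and in null Rnf2 and Bmi1 lay toward the cytoplasm. In WT, 1 of the 9 genes was higher by 2-fold or more in the nucleus relative to the median gene (Suz12, 1.02, at the edge of the limit) and 0 were lower, against 9.36% and 8.05% of kept genes. As deposited, 0 were higher and 9 lower in the nucleus, against 1.74% and 91.2%. In null, 0 were higher and 2 lower, Rnf2 (-1.55) and Bmi1 (-1.47), against 12.1% and 9.3%. As deposited 0 were higher and 8 lower, against 2.91% and 71.9%. Suz12 went from 1.02 in WT to -0.87 in null, and Eed from 0.43 to -0.81. Ezh2 had 0.43 and 0.03, Jarid2 0.26 and 0.14, Cbx2 0.21 and -0.23, and Ring1 -0.21 and 0.25. Ezh1, at -0.07 and 0.70, went the other way from Suz12 and Eed.

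The change of the nucleus-to-cytoplasm difference between WT and null combines all 4 columns. It was lower by 2-fold or more in null for 4 of the 9 genes, Bmi1 (-2.23), Suz12 (-1.89), Rnf2 (-1.48) and Eed (-1.24), and higher by 2-fold or more for 0, against 15.1% and 17.1% of kept genes. The other 5 genes ran from -0.45 (Cbx2) to 0.77 (Ezh1). The median over the 9 genes was -0.45 and over all kept genes 0.08. These 4 genes stayed lower by 2-fold or more under every rescaled setting. As deposited, however, 0 of the 9 genes were lower and 4 higher, against 3.32% and 71.7%, and the median kept gene was higher by 1.70, so that the direction depends on how the columns are scaled.

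The ratio of 2 genes within a column is free of that scale. Ezh2 exceeded Ezh1 by 19.9-fold in WT nuclei, 5.38-fold in null nuclei, 13.99-fold in WT cytoplasms and 8.69-fold in null cytoplasms. Ezh1 thus made up 4.80% of the summed Ezh value in WT nuclei and 15.7% in null nuclei, and 6.67% and 10.3% in the cytoplasms. Rnf2 exceeded Ring1 by 171-fold in WT nuclei and 3.52-fold in null nuclei, and by 132-fold and 12.5-fold in the cytoplasms. Ring1 went on this measure from 0.582% to 22.1% of the pair in the nucleus and from 0.750% to 7.40% in the cytoplasm. In both pairs the paralog that was low in WT took a larger share in both null columns. Among kept genes in general the median difference was also higher where the WT cytoplasm value was low. The direction of this trait therefore cannot be taken as particular to these pairs, and its size was not tested against that trend. The median relative difference in the nucleus was 1.16 for WT cytoplasm values under 5 and -0.46 for values of at least 200. In the cytoplasm these medians were 0.97 and -0.64. The cytoplasmic difference contains the WT cytoplasm value used for grouping, so part of its fall is built in. In the group under 5, genes with a WT nuclear value under 1 needed a null column to pass the filter. Both medians of that group are therefore shaped in part by the filter, and how much of the trend remains was not tested. Within the catalytic core, Ezh2 exceeded Suz12 by 3.19-fold in WT nuclei, 3.85-fold in null nuclei, 4.82-fold in WT cytoplasms and 2.05-fold in null cytoplasms. Eed exceeded Suz12 by between 1.51-fold and 2.28-fold in the 4 columns.

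Cbx2 was higher than Cbx6, Cbx7 and Cbx8 in every column. It held 87.0% of the summed value of these 4 genes in WT nuclei, 63.3% in null nuclei, 88.1% in WT cytoplasms and 66.5% in null cytoplasms. Cbx7 held 7.62% in WT nuclei and 20.8% in null nuclei, and Cbx8 held 6.09% in WT cytoplasms and 24.5% in null cytoplasms. Among the PCGF genes, whose product decides which form of PRC1 is built, Pcgf1 of the variant complexes was highest in every column, with between 74.1% and 87.4% of the summed value. Bmi1 held 10.3% in WT nuclei and 3.66% in null nuclei, but 4.63% in WT cytoplasms and 8.61% in null cytoplasms. Pcgf2, the close paralog of Bmi1, was listed at 0 in both nuclei and had 1.84 in WT cytoplasms and 0.451 in null cytoplasms.

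**Figure D3:**
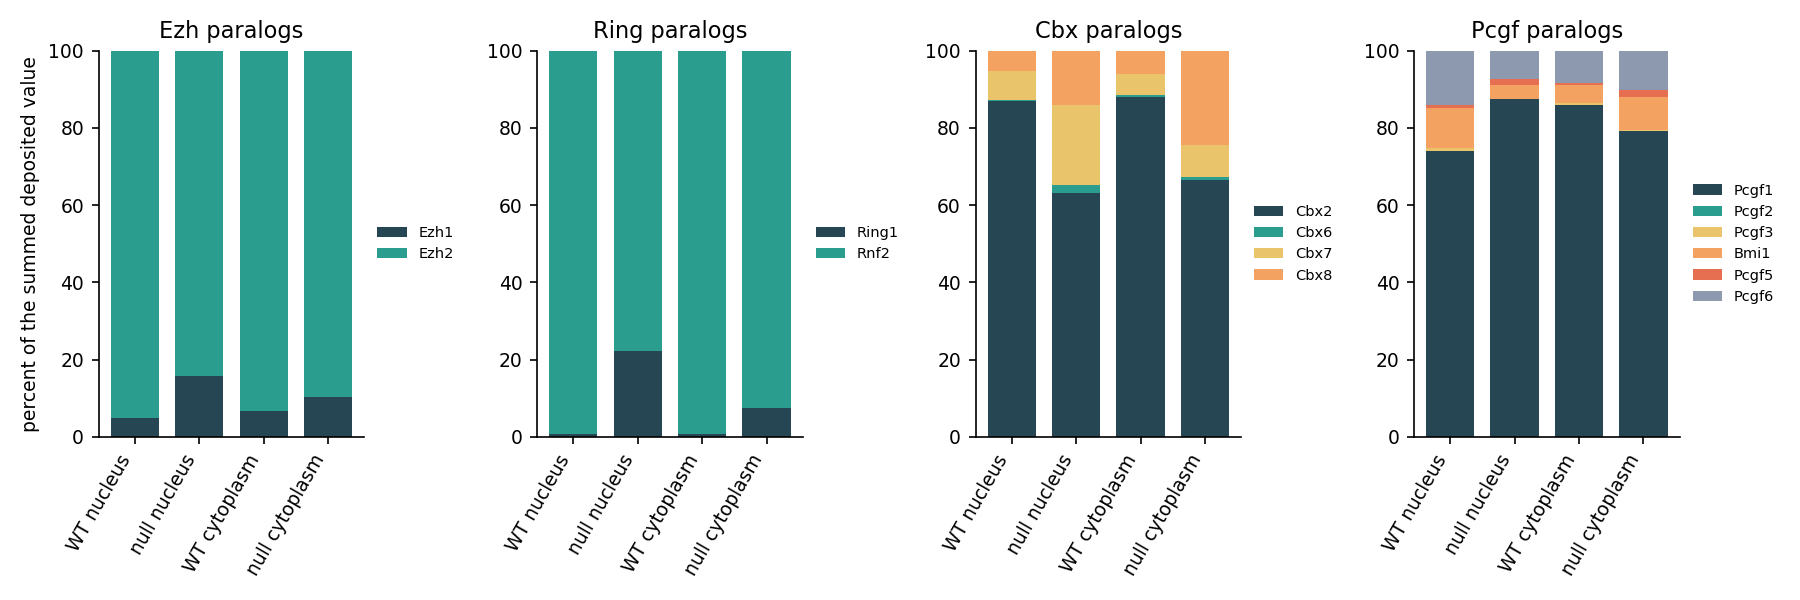
Share of each paralog in the summed deposited value of its family (percent, stacked to 100), by column. The share does not depend on the scale of a column. In nuclei, Ring1 holds 0.582% of the Ring pair in WT and 22.1% in null, and Cbx2 holds 87.0% and 63.3% of the Cbx genes shown.

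The wider machinery was read from lists chosen with earlier results of these data known. Of 9 other PRC2 genes found in the table, all 9 were kept. In the nucleus 3 were higher by 2-fold or more in null against the median gene and 3 lower (median -0.25), and in the cytoplasm 2 were higher and 1 lower (median 0.03). The deposited values gave 2 higher and 0 lower genes for the nucleus, and 2 and 3 for the cytoplasm. Over all kept genes the relative shares were 25.6% higher and 16.4% lower in the nucleus and 23.9% and 19% in the cytoplasm. The deposited shares were 46.3% and 3.69%, then 14.9% and 43.7%. Counts in lists this short, for PRC2 here and for PRC1 and the opposing enzymes, are read against these shares and set no list apart. AU022751, also named Ezhip, whose product inhibits PRC2 in germ cells, had the highest WT cytoplasm value of the list. It had 899 in WT nuclei, 691 in null nuclei, 12032 in WT cytoplasms and 3526 in null cytoplasms (relative -1.48 in the nucleus and -0.88 in the cytoplasm). Rbbp7, a histone chaperone of PRC2 and other complexes, had 662, 623, 11104 and 2448 in the same order (relative -1.19 and -1.29). Both stood far above every one of the 9 genes described here in each column. Phf1, a Polycomb-like accessory subunit, had 134 in WT nuclei, 209 in null nuclei, 991 in WT cytoplasms and 547 in null cytoplasms (relative -0.46 and 0.03). Aebp2, another accessory subunit, had 14.5, 11.4, 182 and 56.2 (relative -1.41 and -0.79).

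The PRC2 accessory genes that were higher in null had low WT values. Phf19 had 0.461 in WT nuclei and 4.09 in null nuclei (relative 1.56), and 3.46 and 13.4 in the cytoplasms (relative 2.04). Lcor had 0.570 and 3.07 in the nuclei (relative 1.01), and E130012A19Rik, also named Epop, had 0.127 and 3.41 in the cytoplasms (relative 1.46). The last was under 1 in both WT columns and passed the filter through the null columns alone, so its place in the counts of higher genes is no support for a difference. Phf19 and Lcor were under 1 in WT nuclei and each needed 1 null column to pass, which limits their place in those counts too.

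Of 26 other PRC1 genes in the table, 24 were kept. In the nucleus 5 were higher by 2-fold or more in null against the median gene and 5 lower (median 0.27), against 13 and 1 as deposited. For the cytoplasm the counts were 8 higher and 1 lower (median 0.19), against 5 and 8 as deposited. Of all kept genes, 25.6% were higher and 16.4% lower in the nucleus on the relative scale, and 23.9% and 19% in the cytoplasm. Pcgf1 had 653 in WT nuclei, 1112 in null nuclei, 11976 in WT cytoplasms and 3648 in null cytoplasms (relative -0.34 and -0.83). Pcgf6, which builds another variant complex, had 124, 93.7, 1170.2 and 465 (relative -1.50 and -0.44), and Kdm2b, the subunit that binds CpG islands for the Pcgf1 complex, had 82.3, 54.0, 536 and 265 (relative -1.70 and -0.13). Pcgf6 and Kdm2b thus had lower values in null nuclei on both scales, although as deposited neither reached 2-fold (-0.40 and -0.60). Phc2, a polyhomeotic subunit of canonical PRC1, had 65.1, 172, 568 and 418 (relative 0.29 and 0.44).

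Pcgf3 was lower by 2-fold or more in both null columns on both scales, with 6.39 in WT nuclei and 1.46 in null nuclei (relative -2.80), and 88.5 and 12.9 in the cytoplasms (relative -1.75). Against the median gene, the Cbx2 paralogs Cbx6, Cbx7 and Cbx8 were higher by 2-fold or more in null nuclei and null cytoplasms. They were higher as deposited too, though Cbx6 (0.97) and Cbx7 (0.99) then fell just short of 2-fold in the cytoplasm. Cbx8 had 1.72 and 19.1 in the nuclei (relative 2.197) and 20.9 and 113 in the cytoplasms (relative 3.13). Cbx7 had 2.54 and 28.1 in the nuclei (relative 2.25), and Cbx6 had 0.0589 and 2.50 (relative 2.09), with 1.21 and 3.32 in the cytoplasms (relative 1.05). Under 1 in WT nuclei, Cbx6 needed 1 null column to pass the filter. The transcription factor gene Yy1 had 28.7 in WT cytoplasms and 173 in null cytoplasms (relative 3.33). All of these genes but Pcgf3 had WT cytoplasm values under 50, the range in which most kept genes at least 2-fold apart were higher in null. For the cytoplasm this is in part built in, since the difference contains the value that sets the range.

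Enzymes that remove Polycomb marks, with their partners, formed a list of 10 genes, all kept. In the nucleus 1 was higher by 2-fold or more in null and 1 lower (median -0.26), and in the cytoplasm 3 were higher and 0 lower (median -0.34). The deposited values gave 3 higher and 0 lower genes for the nucleus, and 1 and 6 for the cytoplasm, beside 46.3% and 3.69%, and 14.9% and 43.7%, of all kept genes. Asxl2, a partner of the H2A deubiquitinase BAP1, was higher in both, with 3.77 and 44.2 in the nuclei (relative 2.36) and 7.11 and 30.6 in the cytoplasms (relative 2.51). The highest of the list by WT cytoplasm value were Usp16 (579 in WT and 205 in null), Bap1 (435 and 179), Asxl1 (379 and 212) and the H3 demethylase gene Kdm6b (357 and 122), and their relative differences in the cytoplasm ran from -0.65 to 0.05. Between the compartments, 4 of the 24 kept PRC1 genes were lower in the nucleus by 2-fold or more in null on both scales, Yy1 (relative -1.58), E2f6 (-1.33), Yaf2 (-1.33) and Pcgf3 (-1.23), against 9.3% of all kept genes. So was Kdm6a, an H3 demethylase gene (-1.09). Mysm1, an H2A deubiquitinase gene, had a change of nuclear share of 1.31.

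**Figure D4:**
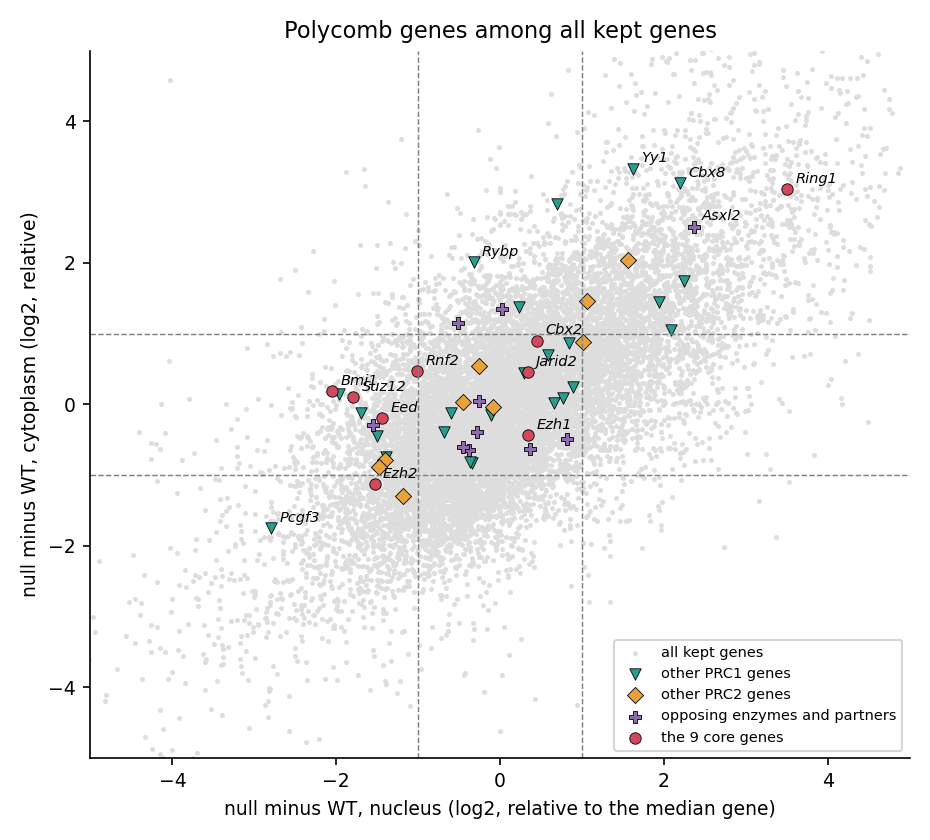
Null minus WT difference in the nucleus (x) and in the cytoplasm (y), both log2 and relative to the median gene, for all kept genes (grey) and the Polycomb lists (coloured). Dashed lines mark 2-fold, and 227 of 14240 genes lie outside the axes. Suz12, Eed, Rnf2 and Bmi1 lie to the left near the zero line of the cytoplasm, and Ring1 lies at the upper right.

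Genes that Polycomb silences elsewhere were read as well. Of 39 Hox genes, 14 were kept, and of these 5 were higher by 2-fold or more and 0 lower in null nuclei relative to the median gene (7 and 0 as deposited), and 8 higher and 0 lower in null cytoplasms (7 and 1 as deposited). Of all kept genes, 25.6% were higher and 16.4% lower in null nuclei on the relative scale, and 23.9% and 19% in null cytoplasms. As deposited these shares were 46.3% and 3.69%, then 14.9% and 43.7%. Where both WT values were under 1, a gene passed the filter only with 1 or more in both null columns. Where only 1 of them was, as for Hoxd1, it needed at least 1 null column. These counts are therefore no support for a difference. Hoxa7 was the one well expressed, with 14.9 in WT nuclei, 34.6 in null nuclei, 268 in WT cytoplasms and 72.3 in null cytoplasms (relative 0.11 and -0.99). Hoxd1 had 3.43 and 22.2 in the cytoplasms (relative 2.70), and the highest value of Hoxd9 was 8.28 and of Hoxd13 7.86. Of 7 genes found that carry maternal H3 methylation as their imprint, 4 were kept. Smoc1 had 0.190 and 5.32 in the nuclei and 1.17 and 9.65 in the cytoplasms (relative 2.55 and 2.22). Phf17, also named Jade1, had 0.0413 and 1.53, then 0.256 and 13.8 (relative 1.62 and 2.98), Xist had 0.528 and 9.37, then 0.246 and 16.1 (relative 2.52 and 3.19), and Gab1 had 0.626 and 0.689, then 6.16 and 2.81 (relative -0.59 and -0.15). Phf17 and Xist were under 1 in both WT columns and thus passed the filter through the null columns alone, and Smoc1 needed 1 null column to pass.

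Likeness of pattern was measured over the 4 columns as the Euclidean distance of relative log2 values centred for each gene. With 4 points it is a coarse measure, and for genes with values near or under 1 the added 1 shapes it. Nearest to the median profile of the 9 genes were Tmem14a (0.183), Tdp2 (0.188), Pla2g16 (0.189), Ppil4 (0.195) and Crkl (0.195). Suz12 and Bmi1 were 0.473 apart and Suz12 and Eed 0.419, while Jarid2 and Cbx2 were 0.386 apart. Of all kept genes, 10.2% were nearer to that median profile than Eed, 28.4% than Suz12 and 32.1% than Bmi1. For Jarid2 and Cbx2 these shares were 36.7% and 43.2%, so the distances do not set the 9 genes apart. Ring1 was 2.63 from the closest other gene of the 9, Cbx2. Nearest to Suz12 among all kept genes were Gnai1 (0.111), Suv39h2 (0.112), a histone H3 methyltransferase gene, and Ncapg2 (0.128). Nearest to Bmi1 were Paip1 (0.060), Gm10745 (0.079) and Yaf2 (0.103), the last a PRC1 subunit gene with 22.04, 11.7, 154 and 92.3 in WT nuclei, null nuclei, WT cytoplasms and null cytoplasms. The other members had these neighbours. Nearest to Eed were Ribc2 (0.044), Glce (0.077) and Rsf1 (0.078), and to Ezh2 Speer4b (0.065), Tmem132b (0.069) and Aff3 (0.124). Nearest to Ezh1 were Tchp (0.102), Zfp335 (0.105) and Hipk2 (0.108), and to Jarid2 Fam125b (0.056), 6230409E13Rik (0.059) and Tlk2 (0.061). Nearest to Ring1 were Socs3 (0.024), AV039307 (0.084) and Gm5577 (0.115), to Rnf2 Mfge8 (0.069), 2610204G22Rik (0.116) and Cox8c (0.153), and to Cbx2 Hipk1 (0.073), Thrap3 (0.076) and Zfp606 (0.080).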

How the data were processed

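Polyadenylated RNA was measured in nuclei and cytoplasms of WT and MTR4-null oocytes, in 13 libraries per the labels. TopHat2 2.1.1 and Cufflinks 2.2.1 are listed in the submitters' processing notes with the build mm9, without roles or settings. The authors deposited a table of FPKM by name, treated here as a score, since its columns are not on 1 scale. Of its values from 20 to below 90000, between 35.5% (null cytoplasm) and 92.2% (WT nucleus) carry more than 6 digits, so columns were averaged or scaled in a way not given in the sources used here. Depth in reads is unknown.

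The members and lists were chosen with earlier results of these data known. Genes of at least 1 in at least 2 columns were kept (14240). Each column was scaled with a divisor, its median ratio to the geometric mean of the columns over 14273 genes above 0 in all columns, 1 was added, and log2 differences of at least 1 were counted. The steps were tested on simulated data. The planned limma fit could not be made without columns of individual libraries. Alternatives were the deposited scale, equal totals, divisors from genes of at least 10 or from kept genes, quantile normalization, pseudocounts 0.1 and 5, other filters and a 1.5-fold limit. All 9 members are named. In the PRC1 list, 1 gene is not reported here. From the other PRC2, PRC1 and opposing lists come the 4 highest by WT cytoplasm value and up to 4 with the largest relative difference among those 2-fold apart on both scales. From the targets come the 4 highest kept Hox genes and every kept imprinted gene. Python 3.11.15 and pandas 2.3.3 were used.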

Additional observations from a re-analysis of the deposited data

Results flagged for a closer look

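For 3 of the 9 genes the null minus WT difference had opposite signs in the nucleus and the cytoplasm, relative to the median gene, and the 2 differences were at least 2-fold apart, as for 14.2% of all kept genes. The nuclear minus the cytoplasmic difference was -1.89 for Suz12 (-1.79 in the nucleus and 0.10 in the cytoplasm), -1.48 for Rnf2 (-1.01 and 0.47) and -2.23 for Bmi1 (-2.05 and 0.19). With 1 column per genotype and compartment this difference was not tested. As deposited, the same quantity was 0.10 for Suz12, 0.50 for Rnf2 and -0.24 for Bmi1.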

How the results depend on the processing

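Over the 9 settings other than the deposited scale and the 1.5-fold limit, Suz12, Eed, Ezh2 and Bmi1 stayed lower by 2-fold or more in null nuclei and Ring1 higher by 2-fold or more in both compartments, while Rnf2 in null nuclei ran from -1.12 to -0.57. As deposited, the counts of genes higher by 2-fold or more and lower became 4 and 0 in the nucleus (null against WT), with 3 lower in the cytoplasm. Nucleus against cytoplasm gave 0 higher and 9 lower in WT and 8 lower in null, and the change of nuclear share gave 4 higher and 0 lower. The deposited shares of all kept genes stand with each comparison above. On that scale Rnf2 in the nucleus turned to 0.081, Suz12 in WT to -2.55, and the change of share to 0.10 for Suz12, 0.74 for Eed and 0.50 for Rnf2. With equal totals, with divisors from genes of at least 10 and with quantile normalization, 2 genes were higher and 0 lower in the cytoplasm. Of all kept genes, 25.7% were higher there and 13.3% lower with equal totals, and 32.2% and 11.1% with those divisors. Quantile normalization gave 18.9% and 21.3%. Equal totals also gave 0 higher in WT and 4 lower in null for nucleus against cytoplasm, and 5 added gave 0 higher in WT. The shares of all kept genes were 6.80%, 20.1% and 5.38%. At 1.5-fold, 2 genes were higher in the cytoplasm, 2 higher in the nucleus in WT, 1 higher and 4 lower in null, and 1 higher in share. In the same order the shares of all kept genes were 33.6%, 17.9%, 21.4%, 22.2% and 30.1%. Divisors from genes of at least 10 moved the median of all kept genes to 0.44 in the nucleus and 0.43 in the cytoplasm. With 1 added on the relative scale, the log2 ratio of Ring1 to Rnf2 in WT nuclei was -6.28. That of Bmi1 to Pcgf2 was 6.95 in the WT and 7.44 in null cytoplasms. That of Cbx2 to Cbx6 was 6.43 and 6.05 in WT nuclei and cytoplasms. No paired analysis was possible because the columns carry no replicate numbers, and for the same reason no replicate could be left out.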

Other observations

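For some genes of variant PRC1 the relative difference of null from WT was not alike in the compartments, which for Rybp and Yaf2 rests on the scale used. Rybp is a subunit shared by the variant complexes. It had 33.4 in WT nuclei and 57.1 in null nuclei (relative -0.32), but 149.8 in WT cytoplasms and 331 in null cytoplasms (relative 2.01). Its paralog Yaf2 had 22.04 and 11.7 in the nuclei (relative -1.97) and 154 and 92.3 in the cytoplasms (relative 0.15). E2f6, the DNA-binding partner of the Pcgf6 complex, had 0.918 and 3.57 (relative 0.70), then 4.96 and 30.2 (relative 2.83). With a WT nuclear value under 1, E2f6 needed 1 null column to pass the filter. As deposited, the differences in the nucleus and the cytoplasm were 0.76 and 1.14 for Rybp, -0.86 and -0.73 for Yaf2, and 1.25 and 2.39 for E2f6. Of the 24 kept genes of the PRC1 list, the change of nuclear share was lower by 2-fold or more for 8 and higher by 2-fold or more for 1, against 15.1% and 17.1% of all kept genes. As deposited 1 was lower and 14 higher, against 3.32% and 71.7%.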
